A study of Mus musculus with 12 samples.

Results

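The hepcidin genes Hamp and Hamp2 were followed in mouse liver together with 8 genes that sense, carry, store or export iron: Bmp6, Hfe, Tfr2, Slc40a1, Trf, Tfrc, Fth1 and Ftl1. The 10 genes were selected by symbol from the 24537 genes of the RNA-Seq table, and the set was drawn up with expression values of these same livers known. All 10 passed the filter on low values, which kept 10593 genes. Differences of the 10 between diets are therefore given as a description, without p-values. Tests are read only for 82 other iron genes, of which 75 passed the filter. That list too was drawn up with earlier results of these data known.

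The livers came from 12 male C57Bl/6J mice that were 6 weeks old at the start and housed singly. Control (Con) mice ate ad libitum, and calorie-restricted (CR) mice received 30% less. Each diet was sampled at day 25 and at day 30, with 3 mice per group and a separate mouse for each library. The study compared these days because it examined a change in hepatic protein synthesis around that time. According to its methods, Con mice ate an NIH41 diet, while CR mice ate a fortified version of it that was handed out once a day at noon, and mice drank heavy water before tissue was taken. Lower calorie intake, the fortified formula and the fixed meal time cannot be told apart in these comparisons. The iron content of the diets and the time from the last meal to collection were not given in the sources used here.

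Hepcidin is a small peptide hormone that the liver secretes. It binds ferroportin, the iron exporter encoded by Slc40a1, and causes its internalization and degradation, which holds iron inside macrophages, hepatocytes and gut cells. Hepatocytes raise hepcidin transcription when bone morphogenetic proteins (BMPs) from neighboring endothelial cells activate SMAD proteins, when HFE and transferrin receptor 2 report iron-loaded transferrin, and when interleukin 6 activates STAT3. Mice carry a second gene, Hamp2, beside Hamp, and its peptide is not known to act on ferroportin in the same way. Inside cells, iron regulatory proteins bind iron-responsive elements (IREs), short hairpins in mRNAs. They block translation of mRNAs with an IRE ahead of the coding region and stabilize mRNAs with IREs behind it, so much of this control does not appear in mRNA levels.

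The promoters of the hepcidin genes are shown because the genes are close copies that differed in how far apart the diets lay. Both are on the minus strand of chromosome 7, with transcription starts 19848 bases apart. The 250 bases before each start were taken from RefSeq on GRCm38.p6, at chr7:30944030-30944279 for Hamp and chr7:30924182-30924431 for Hamp2. Capitals mark, first, the core of the proximal BMP response element and its counterpart in Hamp2 and, second, a STAT site.
Hamp: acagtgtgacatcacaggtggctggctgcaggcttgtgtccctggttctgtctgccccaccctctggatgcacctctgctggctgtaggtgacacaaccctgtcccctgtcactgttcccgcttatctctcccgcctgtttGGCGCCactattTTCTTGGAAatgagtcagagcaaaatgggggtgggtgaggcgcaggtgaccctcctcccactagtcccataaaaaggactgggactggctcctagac
Hamp2: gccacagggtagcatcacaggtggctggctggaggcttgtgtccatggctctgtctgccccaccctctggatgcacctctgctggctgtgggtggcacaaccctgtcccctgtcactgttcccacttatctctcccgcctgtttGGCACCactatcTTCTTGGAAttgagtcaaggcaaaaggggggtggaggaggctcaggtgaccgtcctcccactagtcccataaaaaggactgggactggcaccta
Aligned over 247 bases, these windows were 91.9% identical, with 20 substitutions. The BMP core GGCGCC began at base 142 of the Hamp window, leaving 103 bases between its end and the start. At the aligned place in Hamp2 the letters were GGCACC, a substitution written G145A when positions are counted from 1 at the 5′ end of the Hamp window. The STAT motif TTCNNNGAA was read as TTCTTGGAA in both genes, from base 154 in Hamp and base 157 in Hamp2.

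Searched on both strands of 32817 RefSeq promoter windows, GGCGCC was present in 9.59% and TTCNNNGAA in 7.01%. The E-box CACGTG (6.02% of windows), the cyclic AMP element core TGACGT (6.46%) and the forkhead site TGTTTAC (3.16%) had no match in either hepcidin window. Of these motifs, CACGTG and TGACGT can share letters. A match describes these letters only, and binding was not measured.

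The IREs are shown because 4 of the genes are classic targets of iron regulatory proteins. A hairpin pattern was searched in the longest transcript of each gene in GENCODE M21 (GRCm38). It asks for a bulged C, the loop CAGTGN and 5 paired bases between them and after the loop, with G-T pairs allowed. Each stretch below is printed with flanking bases to a length of 28, and pairing of these flanks was not asked for. The pattern was found in 271 of 21875 genes (1.24%). Capitals mark the bulged C and the loop.
Tfrc element 1: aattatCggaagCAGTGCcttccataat
Tfrc element 2: cattatCgggagCAGTGTcttccataat
Tfrc element 3: ctatatCggagaCAGTGAtctccatatg
Tfrc element 4: aattatCgggaaCAGTGTttcccataat
Fth1: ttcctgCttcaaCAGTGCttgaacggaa
Ftl1: gtcttgCttcaaCAGTGTttgaacggaa
Slc40a1: caacttCagctaCAGTGTtagctaagtt
The 4 elements of Tfrc lie in the 3′ UTR, in exon 19 of the plus strand, at chr16:32631219-32631246, chr16:32631598-32631625, chr16:32631663-32631690 and chr16:32631710-32631737. Those of Fth1 (chr19:9982732-9982759, plus strand), Ftl1 (chr7:45459780-45459807, minus strand) and Slc40a1 (chr1:45925466-45925493, minus strand) lie in the 5′ UTR. The other 6 genes had no match to this pattern.

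Expression is given as FPKM, in which exon reads are scaled by exon length and by library depth, which allows levels of different genes to be compared roughly. Reads over junctions of short exons can be lost in mapping. How far this lowers Hamp or Hamp2 against longer genes was not tested. Library depth, recovered from the spacing of low values, was 15748702 to 23345582 reads. Hepatocyte markers made up the bulk of the marker signal, with a summed FPKM over 8 genes of 40274 to 69613 across libraries. Neutrophil and lymphocyte markers stayed at or below 2.10 in summed FPKM, and 1 of the 5 neutrophil genes was listed at 0 in every library. In whole tissue, fewer cells of a type and less RNA per cell cannot be told apart.

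Hamp, at chr7:30942369-30944029 in mm10, was one of the most abundant of the iron mRNAs. At day 25 its FPKM was 2383, 1293 and 1601 in the Con mice and 2448, 3588 and 2467 in the CR mice. At day 30 it was 1196, 1223 and 1687 in Con mice and 1892, 2925 and 2012 in CR mice. Every CR mouse lay above every Con mouse of its day, although the highest Con mouse at day 25 came close to the lowest CR mouse. The log2 fold change of CR over Con, on the scale of log2(FPKM + 1), was 0.71 (SE 0.25) at day 25 and 0.72 (SE 0.25) at day 30, and the ratio of the group means was 1.61 and 1.66.

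Hamp2, at chr7:30922372-30924181, was far lower than Hamp in Con mice and differed more between the diets. Its FPKM at day 25 was 34.2, 31.6 and 26.2 in Con mice and 113, 60.3 and 74.2 in CR mice. At day 30 the Con values were 18.8, 12.3 and 28.5, and the CR values were 497, 143 and 176. The groups did not overlap at either day, and 1 CR mouse at day 30 stood well above the other two. The log2 fold change was 1.36 (SE 0.41) at day 25 and 3.56 (SE 0.41) at day 30. Leaving out any 1 mouse moved it to between 1.11 and 1.55 at day 25 and between 3.01 and 3.91 at day 30, and the value of 3.01 is that without the CR mouse at 497.

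Hamp2 as a percentage of Hamp followed the same course. In Con mice it was 1.44%, 2.45% and 1.64% at day 25 and 1.57%, 1.00% and 1.69% at day 30. In CR mice it was 4.61%, 1.68% and 3.01% at day 25, overlapping the Con range, and 26.3%, 4.88% and 8.74% at day 30, above it. The difference in the effect of CR between the days was 2.20 on the log2 scale for Hamp2 (SE 0.58) and 0.013 for Hamp (SE 0.35). None of the 10 genes passed the adjusted p for this difference, nor for CR day 30 against CR day 25, and the shares of all genes passing were 0.00944% and 0.321%. From day 25 to day 30, Hamp2 differed by 1.53 in CR mice and by -0.67 in Con mice (SE 0.41 each), and Hamp by -0.32 and -0.33 (SE 0.25 each).

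**Figure D1:**
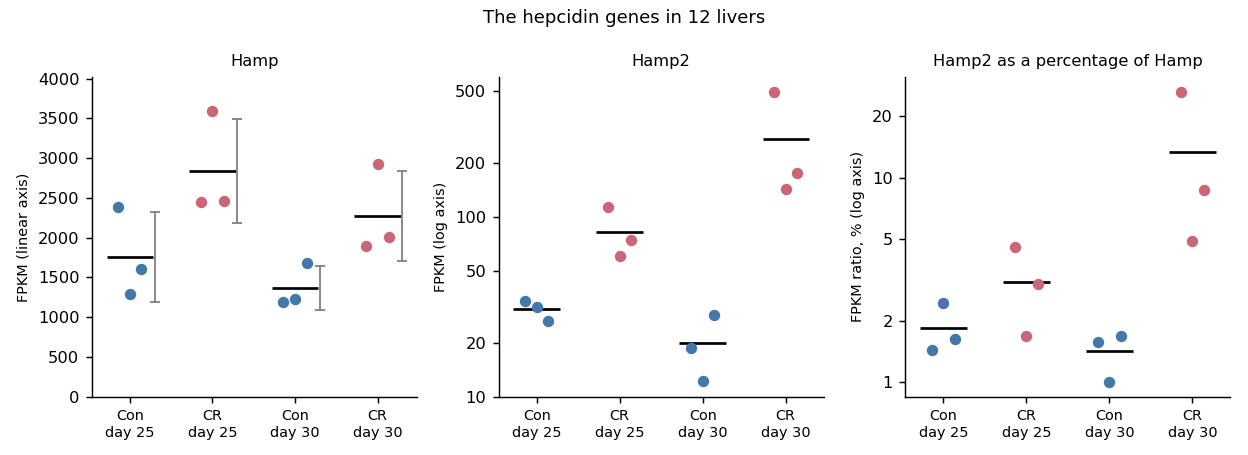
FPKM of Hamp (linear axis) and of Hamp2 (log axis) and their ratio in percent (log axis) in each of the 12 livers, by diet and day. Points are mice, black lines are group means and grey bars beside the Hamp points are SDs (n = 3); CR mice lay above Con mice for both genes at both days, and Hamp2 reached 26.3% of Hamp in 1 CR mouse at day 30.

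The transcripts of the hepcidin genes were 94.6% identical over 410 aligned bases. None of the 311 windows of 100 bases in Hamp, the length of 1 read, occurred unchanged in Hamp2, whereas 60 of 361 windows of 50 bases did (16.6%). How often a read could have been placed on the wrong hepcidin gene was not tested.

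The mRNAs whose profiles over the 12 libraries lay nearest to the hepcidins were ranked by the root mean square difference of centered log2(FPKM + 1) among 10065 protein-coding genes. For Hamp these were Art4 (0.298), Caln1 (0.299) and Galnt11 (0.308), against a root mean square of 0.487 for Hamp itself. For Hamp2 they were Cyp2a22 (0.534), Orm3 (0.641) and Ppp1r3g (0.649), against 1.45 for Hamp2. The mean FPKM of Cyp2a22 was 1.45 in Con and 7.85 in CR mice at day 25, and 1.55 in Con and 18.4 in CR mice at day 30. Art4 lay at 0.53 to 1.90 FPKM and Caln1 at 1.04 to 3.03 across libraries, levels at which adding 1 shrinks log2 differences. The measure counts the size of a gene's changes as well as their course. With 0.487 against 1.45, the hepcidins could not be near each other by it, so it does not compare their courses.

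Ordered by mean FPKM, Trf came first and Bmp6 last in each of the 4 groups. Below Trf stood Hamp and Fth1, whose ranges overlapped in Con mice at both days and were apart, with Hamp above, in CR mice. Ftl1 followed in every group, and Tfr2 came next in 3 of the 4. Hamp2 was the seventh gene in the Con groups, the sixth in CR mice at day 25 and the fifth in CR mice at day 30, where its range reached that of Ftl1. Hamp2 and Hfe overlapped in Con mice at day 30, as did Tfr2 and Hamp2 in CR mice at day 25. At the low end, Tfrc and Hfe overlapped in CR mice at day 30.

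Among the genes that induce hepcidin, Bmp6, the endothelial BMP that responds to liver iron, was the least abundant (chr13:38345716-38500314). Its FPKM at day 25 was 1.47, 1.75 and 1.51 in Con mice and 1.75, 1.76 and 2.36 in CR mice, so that the groups met without overlapping. At day 30 it was 1.21, 0.926 and 1.01 in Con mice and 2.67, 2.15 and 1.79 in CR mice, clearly apart. On the log2 scale the difference was 0.20 (SE 0.12) at day 25 and 0.64 (SE 0.12) at day 30, where the group means differed by a ratio of 2.10. Because a pseudocount of 1 is large beside such values, the day 30 difference was 0.99 with a pseudocount of 0.1 and 1.06 on recovered reads with voom. It rested on 59 to 186 reads per library.

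Hfe encodes a partner of the transferrin receptors (chr13:23702034-23710854), and it lay lower under CR. Its FPKM was 11.6, 12.4 and 11.9 in Con mice and 9.53, 10.4 and 9.57 in CR mice at day 25. At day 30 it was 12.4, 9.66 and 10.5 in Con mice and 8.28, 9.18 and 8.41 in CR mice. The groups did not overlap at either day, and the log2 fold changes were small, at -0.26 and -0.30 (SE 0.096 each).

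Tfr2, the hepatocyte sensor of iron-loaded transferrin (chr5:137570720-137588081), had an FPKM of 97.7, 130 and 118 in Con mice and 112, 123 and 117 in CR mice at day 25. At day 30 the values were 116, 97.0 and 95.8 in Con mice and 104, 102 and 89.9 in CR mice. The groups overlapped at both days, with log2 fold changes of 0.035 and -0.057 (SE 0.12 each).

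Of the 11 other genes tested in the BMP and SMAD arm, Hjv, the hemojuvelin coreceptor, fell at both days. Its FPKM was 38.2, 38.3 and 37.5 in Con mice and 23.8, 24.6 and 24.9 in CR mice at day 25, and 40.9, 28.8 and 34.8 against 20.5, 19.8 and 17.9 at day 30. The log2 fold change was -0.62 (adjusted p = 0.00700) and -0.80 (adjusted p = 0.000930) in the limma test over all genes. Bmp2, the other endothelial BMP, rose at day 30, from 3.62, 3.19 and 2.68 in Con mice to 4.98, 4.74 and 5.10 in CR mice (log2 fold change 0.52, adjusted p = 0.00908), while at day 25 it was 0.19 higher (adjusted p = 0.319). The BMP receptors, Neo1 and the SMADs of this arm did not pass at either day alone. Over both days together, Bmp2 passed as higher and Hjv and Neo1 as lower. These are 1 and 2 of 11, where 14.5% and 26.1% of all genes tested passed.

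Among the 10 targets and inhibitors of BMP signaling, none passed at day 25, other than Fgl1 with the replicate block (-0.38, adjusted p = 0.0561). At day 30, 2 rose, where 8.33% of all genes tested did. Id1, an immediate BMP target, was at 6.56, 4.54 and 3.58 FPKM in Con mice and 8.62, 13.4 and 8.71 in CR mice (log2 fold change 0.94, adjusted p = 0.0641). Atoh8, a transcription factor that responds to BMP, was at 7.36, 5.41 and 5.12 in Con mice and 9.12, 9.45 and 9.30 in CR mice (0.58, adjusted p = 0.0224). For Id1 the call was lost when single mice of day 30 were left out. Smad7, the feedback inhibitor, differed by -0.16 at day 25 and 0.099 at day 30 (adjusted p = 0.702 and 0.796), and the sign at each day turned when 1 mouse was left out. Tmprss6, the protease that cleaves hemojuvelin, differed by 0.12 and -0.082 (adjusted p = 0.659 and 0.740). Id2 and Id3 of the same list lay lower on average under CR, with overlapping groups at both days. The ratio of CR to Con means was 0.58 and 0.63 for Id2 and 0.53 and 0.84 for Id3. Over both days together, Id1 and Atoh8 passed as higher and Id2 as lower. These are 2 and 1 of 10, where 14.5% and 26.1% of all genes tested passed.

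Markers of sinusoidal endothelial cells, the source of both BMPs, lay higher in sum under CR at day 30 and overlapped between the diets at day 25. Their summed FPKM over 8 genes was 48.3 to 74.4 in Con mice and 65.1 to 78.2 in CR mice at day 25, and 51.8 to 55.1 against 69.0 to 78.6 at day 30. Of the 8 markers, 1 rose at day 25 and 5 at day 30 (Dnase1l3, Fcgr2b, Oit3, Clec4g and Stab2), where 5.60% and 8.33% of all genes tested rose. None of the 8 was listed at 0 in any library. The summed stellate cell markers were 62.6 to 69.4 in Con and 74.5 to 83.0 in CR mice at day 25, and 54.2 to 70.7 and 78.7 to 94.6 at day 30. The part of these cells in the levels of Bmp6, Bmp2, Id1 and Atoh8 was not tested.

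Of the 8 tested genes that carry inflammatory and nutrient signals to hepcidin, Il6ra, the interleukin 6 receptor, rose at both days. Its FPKM was 16.8, 22.0 and 26.0 in Con mice and 43.6, 37.2 and 41.1 in CR mice at day 25, and 15.2, 13.0 and 14.6 against 25.6, 29.2 and 36.2 at day 30. The log2 fold change was 0.90 (adjusted p = 0.00481) and 1.03 (adjusted p = 0.00131). Cebpa, a hepatocyte factor that acts on the Hamp promoter, fell at day 30, from 189, 139 and 141 in Con mice to 80.9, 106 and 90.2 in CR mice (-0.75, adjusted p = 0.00559), and was -0.19 at day 25 (adjusted p = 0.464). Socs3, a STAT3 target that limits the same signal, differed by -0.38 and -0.79 (adjusted p = 0.511 and 0.119), with overlapping groups. Without the Con mouse at 1.08 FPKM, the third Con column of day 30, it was -1.25 at that day (adjusted p = 0.00613), past both thresholds. Creb3l3, a fasting and stress factor, differed by 0.019 and -0.29 (adjusted p = 0.948 and 0.137), and at day 30 it passed as TPM (-0.33, adjusted p = 0.0429) and with quantile normalization (-0.36, adjusted p = 0.0271). Stat3, Jak2 and Il6st did not pass at either day alone. Foxo3 did not pass at either day alone in the main model, and at day 25, where its groups did not overlap, it passed with the replicate block (0.58, adjusted p = 0.0510). Over both days together, Cebpa, Jak2, Socs3 and Stat3 passed as lower and Foxo3 and Il6ra as higher. These are 4 and 2 of 8, where 26.1% and 14.5% of all genes tested passed.

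Slc40a1, the ferroportin exporter that hepcidin acts on (chr1:45908070-45925594), lay lower under CR. Its FPKM was 44.5, 41.2 and 35.4 in Con mice and 28.8, 30.3 and 36.7 in CR mice at day 25, where 1 CR mouse lay within the Con range. At day 30 it was 42.3, 44.2 and 40.2 in Con mice and 27.7, 37.8 and 32.6 in CR mice, with all CR mice below. The log2 fold change was -0.33 and -0.37 (SE 0.13 each). Kupffer cells, which recycle iron from red cells, express much of the ferroportin of liver. Their 8 markers summed to 40.5 to 69.8 FPKM in Con and 26.3 to 34.6 in CR mice at day 25. Of the 8, 4 were lower at that day (Csf1r, Cd5l, Clec4f and Vsig4), where 9.34% of all genes tested were. At day 30 the sums were 37.0 to 54.1 and 35.9 to 48.8, overlapping, with Marco higher. The part of Kupffer cells in the Slc40a1 level was not tested.

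Trf, the plasma iron carrier transferrin (chr9:103208876-103230286), was the most abundant iron mRNA. Its FPKM was 4840, 6349 and 5560 in Con mice and 5714, 6927 and 6767 in CR mice at day 25, with overlap. At day 30 it was 5984, 4925 and 5342 in Con mice and 7832, 6651 and 7184 in CR mice, without overlap. CR exceeded Con by a log2 fold change of 0.22 and 0.42 (SE 0.13 each). Of its transcript, 77.4% of the 100-base windows also occur in the annotated gene Gm20425, so its reads may be uncertain. Whether Gm20425 shares the place of Trf in the genome was not checked. Hepatocyte markers moved with Trf at day 30, where they summed to 40274 to 49390 FPKM in Con and 57411 to 69613 in CR mice. Of the 8 markers, 3 rose, where 8.33% of all genes tested did, and their part in the result was not tested.

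Tfrc encodes transferrin receptor 1, which takes up iron-loaded transferrin and whose mRNA carries the 4 IREs shown above (chr16:32608896-32632794). Its FPKM was 6.95, 5.68 and 9.31 in Con mice and 6.04, 5.65 and 3.75 in CR mice at day 25. At day 30 it was 4.04, 8.61 and 5.50 in Con mice and 6.83, 10.8 and 8.66 in CR mice. The groups overlapped at both days, and the difference had opposite signs, -0.43 at day 25 and 0.50 at day 30 (SE 0.24 each). The difference between the days was 0.94 (SE 0.34). Erythroid markers, from cells that express much of this receptor, summed to 296 to 1107 FPKM in Con and 480 to 638 in CR mice at day 25, and to 193 to 499 and 334 to 1015 at day 30. Of the 7 genes, 5 were tested and Alas2 was lower at both days, and their part in the Tfrc level was not tested. The ratio of Tfr2 to Tfrc had group means of 16.5 in Con and 23.8 in CR mice at day 25, and 19.1 and 11.7 at day 30, with SDs of 3.05 to 8.80.

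The ferritin genes Fth1 (chr19:9982646-9985111) and Ftl1 (chr7:45457944-45459886), whose heavy and light chains form the shell that stores iron, differed little between the diets. Fth1 was at 1302, 1481 and 1546 FPKM in Con mice and 1221, 1596 and 1725 in CR mice at day 25, and at 1516, 1353 and 1464 against 1584, 1461 and 1519 at day 30. Its log2 fold change was 0.058 and 0.076 (SE 0.13 each), with overlap at both days. Ftl1 was at 567, 581 and 578 in Con mice and 478, 649 and 546 in CR mice at day 25, and at 705, 539 and 567 against 440, 510 and 544 at day 30. The groups overlapped, only just at day 30, and the log2 fold change was -0.056 and -0.27 (SE 0.14 each). The ratio of Ftl1 to Fth1 averaged 0.400 in Con and 0.371 in CR mice at day 25, and 0.417 ± 0.042 and 0.328 ± 0.044 (SD, n = 3) at day 30. For Ftl1, 60.4% of the 100-base windows also occur in its copies Ftl1-ps1 and Ftl2-ps or in other annotated genes, so its reads may be uncertain. Whether any of these shares its place in the genome was not checked. For Fth1 the share of such windows was 0.574%.

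**Figure D2:**
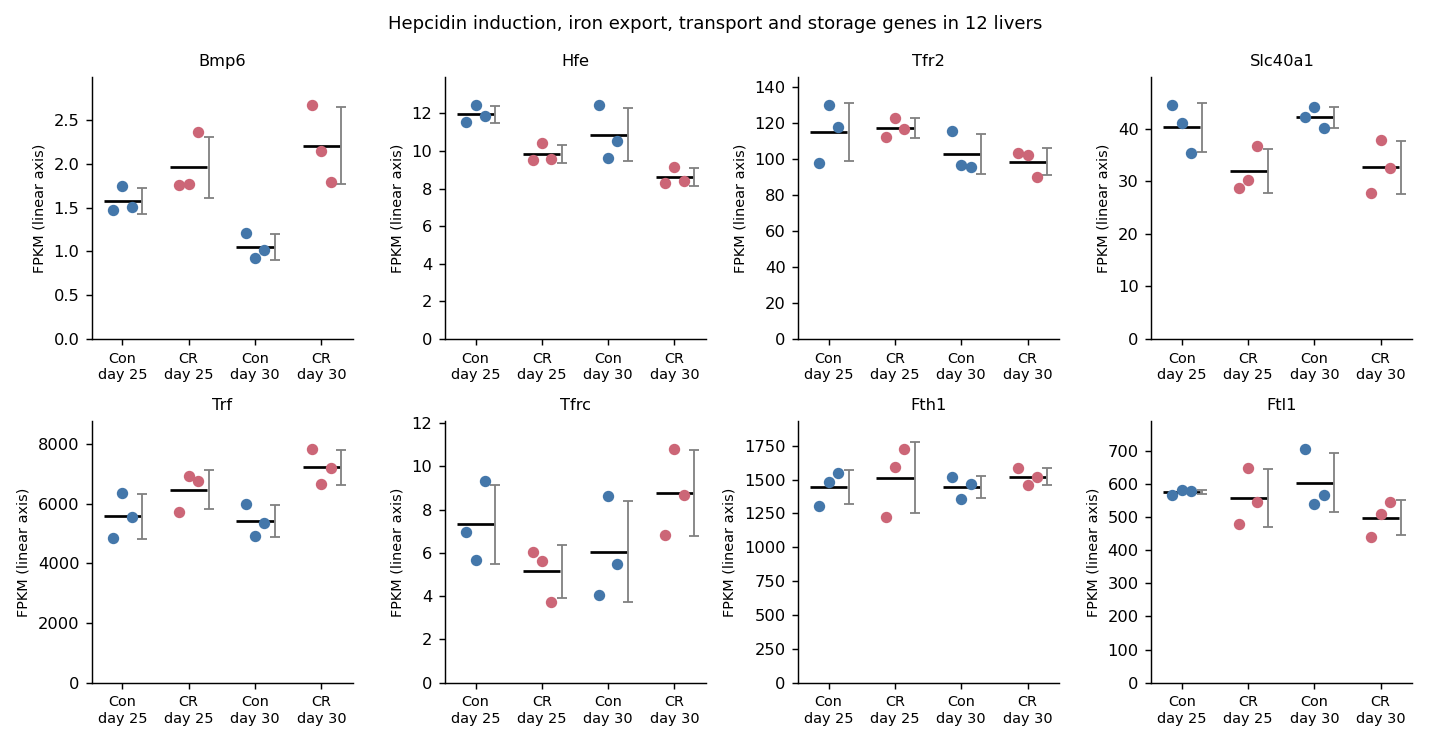
FPKM (linear axes from 0) of Bmp6, Hfe, Tfr2, Slc40a1, Trf, Tfrc, Fth1 and Ftl1 in each of the 12 livers, by diet and day. Points are mice, black lines group means and grey bars SDs (n = 3); at day 30 the CR mice lay above the Con mice for Bmp6 and Trf and below them for Hfe and Slc40a1, while Tfr2, Tfrc, Fth1 and Ftl1 overlapped.

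Counted over the 10 genes, the diets did not overlap for 4 at day 25 (3 with CR above and 1 below), where 28.2% of all genes tested did not overlap, 10.2% with CR above and 18.0% with CR below. At day 30 the count was 6 of 10 (4 above and 2 below), against 36.4% of all genes (12.1% and 24.3%). Under both thresholds, an adjusted p under 0.1 and a log2 fold change of at least 1 in size, Hamp2 alone of the 10 passed at each day. The share of all genes was 1.48% at day 25 (0.840% higher and 0.642% lower under CR) and 2.21% at day 30 (0.925% and 1.28%). Without any 1 of 5 of the 6 mice of day 25, or with no filter on low values, none of the 10 passed at that day. Under the adjusted p alone, 2 of 10 passed at day 25, both higher, where 14.9% of all genes did (5.60% higher and 9.34% lower). At day 30, 6 of 10 passed, 4 higher and 2 lower, where 24.7% of all genes did (8.33% and 16.4%). With the replicate number as a block at day 25, Hamp no longer passed the adjusted p (log2 fold change 0.71, SE 0.24) and Hfe did (-0.26, SE 0.079). Counts and calls of the 10 genes, wherever given, describe genes chosen on the same values and are read no further.

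**Figure D3:**
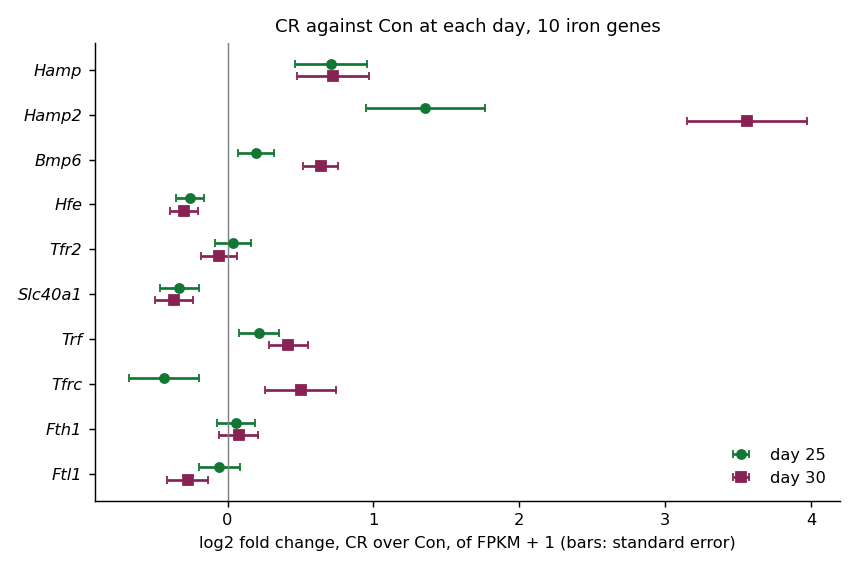
Log2 fold change of CR over Con on log2(FPKM + 1) for the 10 genes at day 25 (circles) and day 30 (squares), with bars of 1 standard error from the model of 4 groups. Hamp2 stands apart at day 30 with 3.56, Hamp is alike at both days (0.71 and 0.72), and Tfrc is on opposite sides of 0.

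Of the 82 other iron genes, 75 were tested. At day 25, 7 rose and 4 fell at an adjusted p under 0.1, and at day 30, 12 rose and 6 fell. These shares were close to the background of 14.9% and 24.7%. The balance of directions depended on the scaling between libraries, with 8 higher and 3 lower at day 25 and 17 and 5 at day 30 under median-ratio scaling, and 9 and 7 at day 30 as TPM. Over all genes, 37.5% of those passing at day 25 and 33.7% at day 30 were higher, against 53.8% and 51.6% under median-ratio scaling and 47.8% and 50.7% under quantile normalization. Past both thresholds there were 0 at day 25 and Il6ra alone at day 30. Without the threshold on fold, 15 of the 75 had an unadjusted p under 0.05 at day 25 and 23 at day 30, against 2635 and 3353 of the 10593 genes tested, so the list held no larger share than all genes. The median log2 fold change of the 75 was -0.0041 at day 25 and -0.0064 at day 30, against -0.039 and -0.068 for all genes tested, and that of the 10 genes above was 0.047 and 0.25. With the replicate block at day 25, 15 of the 75 passed in place of 11, the additions being Fgl1, Foxo3, Slc39a8 and Cisd1 (adjusted p 0.0510 to 0.0976).

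Of 8 genes around the iron regulatory proteins and intracellular iron, 3 rose at each day and none fell, where 5.60% and 8.33% of all genes tested rose. Only Epas1 of the 3 was left without Con replicate 1 at day 25 or without CR replicate 2 at day 30. Epas1, a hypoxia factor whose mRNA is itself an IRE target, was at 34.4, 36.7 and 38.7 FPKM in Con mice and 56.9, 50.6 and 51.8 in CR mice at day 25, and at 31.8, 34.9 and 31.1 against 51.4, 55.1 and 62.5 at day 30. It rose by 0.53 (adjusted p = 0.00819) and 0.77 (adjusted p = 0.000570) on the log2 scale. Ncoa4, the receptor that delivers ferritin for breakdown, rose by 0.30 and 0.31 (adjusted p = 0.0963 and 0.0587). Aco1, iron regulatory protein 1, rose by 0.34 at day 25 (adjusted p = 0.0599) and was 0.21 higher at day 30 (adjusted p = 0.191, and 0.0483 with median-ratio scaling). Ireb2, iron regulatory protein 2, differed by -0.25 and -0.42 (adjusted p = 0.390 and 0.109), and the second value was 0.0814 to 0.0966 under 6 alternatives. Fbxl5, which targets Ireb2 protein for breakdown, rose at day 30 (0.31, adjusted p = 0.0806).

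Of the 13 genes of membrane transport and iron reduction, 2 rose and 2 fell at day 25, and 2 rose and 4 fell at day 30. Of all genes tested, 5.60% rose and 9.34% fell at day 25, and 8.33% and 16.4% did at day 30. Steap3, the reductase that prepares iron from transferrin for release into the cytosol, was at 8.98, 8.02 and 7.69 FPKM in Con mice and 3.62, 4.85 and 4.02 in CR mice at day 25, and at 7.89, 7.70 and 8.65 against 4.85, 6.01 and 4.80 at day 30. It fell by 0.84 (adjusted p = 0.00125) and by 0.55 (adjusted p = 0.00599) on the log2 scale. Slc48a1, a heme transporter, fell by 0.50 at each day (adjusted p = 0.0311 and 0.0212). Slc39a14, the importer of free iron, rose by 0.48 at day 25 (adjusted p = 0.0341), and at day 30 the difference was 0.25 (adjusted p = 0.199). Mcoln1, an endosomal cation channel, rose by 0.40 at day 25 (adjusted p = 0.0149) and was 0.19 higher at day 30 (adjusted p = 0.162). At day 30, median-ratio scaling brought both past the threshold (adjusted p = 0.0959 for Slc39a14 and 0.0306 for Mcoln1), and quantile normalization did so for Mcoln1 (adjusted p = 0.0352). Slc11a2, the divalent metal transporter, differed by -0.25 at day 25 (adjusted p = 0.308) and fell by 0.40 at day 30 (adjusted p = 0.0765), although its groups overlapped.

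Of 21 genes of iron-sulfur assembly, 1 rose at day 25 and 3 at day 30, and none fell, near the 5.60% and 8.33% of all genes that rose. With the replicate block, Cisd1 passed at day 25 too (0.29, adjusted p = 0.0701). Fdx1, a ferredoxin, rose at both days, from 31.8, 39.6 and 31.0 FPKM to 59.0, 73.1 and 46.3 at day 25 (0.77, adjusted p = 0.0159) and from 44.2, 45.2 and 40.2 to 66.4, 66.2 and 48.0 at day 30 (0.46, adjusted p = 0.0878). The call at day 30 was lost with weaker filters and without any Con column or CR replicate 1 or 2 of that day (0.38 to 0.49). Of the 4 other plasma carriers, Cp, the ferroxidase ceruloplasmin, fell by 0.40 at day 25 (adjusted p = 0.0655) and was -0.23 at day 30 (adjusted p = 0.221). Hpx and Hp, which bind heme and hemoglobin, differed by -0.22 and -0.29 at day 25 (adjusted p = 0.477 and 0.412) and by 0.066 and -0.045 at day 30 (adjusted p = 0.827 and 0.899). Lcn2, which binds bacterial iron carriers, differed by -0.052 and 1.17 (adjusted p = 0.969 and 0.164), with FPKM from 1.33 to 18.3 across libraries. Erfe, the erythroid hormone that lowers hepcidin, stayed at 0.050 to 0.360 FPKM and was not tested.

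**Figure D4:**
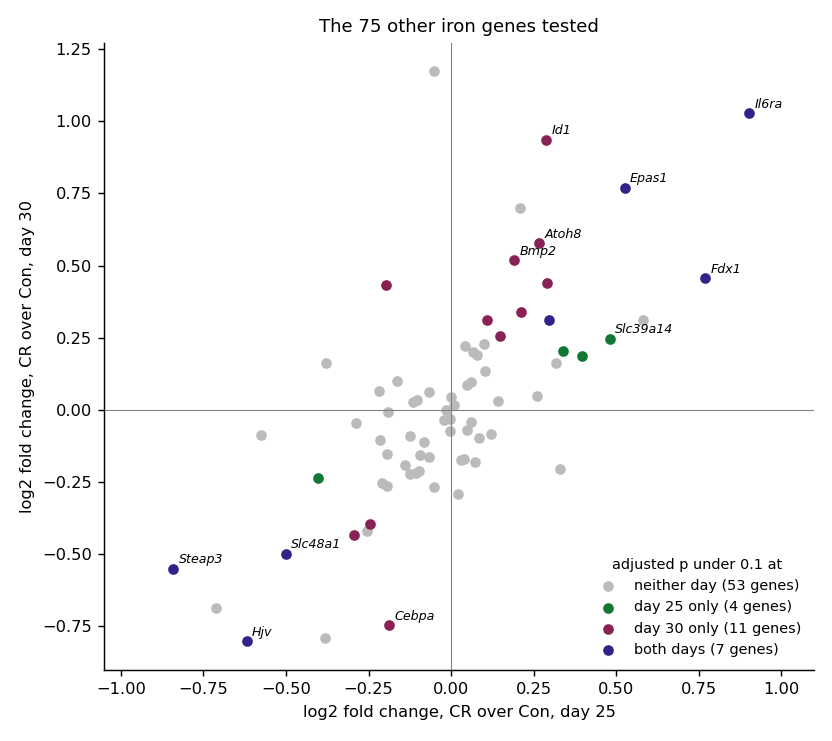
Log2 fold change of CR over Con at day 25 (horizontal) and day 30 (vertical) for the 75 other iron genes tested, colored by the day at which the adjusted p was under 0.1. Of these, 7 passed at both days, 4 at day 25 alone and 11 at day 30 alone, with Il6ra and Epas1 at the upper right and Steap3 and Hjv at the lower left.

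Over both days together, with 6 mice per diet and day as a covariate, 17 of the 75 rose and 15 fell under the adjusted p (20 and 8 under median-ratio scaling). Leaving out any 1 mouse gave 23 to 28 of the 75 in place of 32. Of all genes tested, 40.6% passed (14.5% higher and 26.1% lower). Of the 10 genes, 6 passed, 4 higher and 2 lower, and Hamp2 alone passed both thresholds, as did 1.66% of all genes (0.821% higher and 0.840% lower). The differences of the 10 genes were 0.72 for Hamp (SE 0.17), 2.46 for Hamp2 (SE 0.41), 0.42 for Bmp6 (SE 0.10), 0.32 for Trf (SE 0.096), -0.28 for Hfe (SE 0.064) and -0.35 for Slc40a1 (SE 0.090). For Tfr2, Tfrc, Fth1 and Ftl1 they lay between -0.16 and 0.067. None of the 75 differed in its response between the days in the limma test of the interaction, where 3 had an unadjusted p under 0.05 and 1 of all genes tested passed. None differed between the Con groups, with 6 at an unadjusted p under 0.05 and 0% of all genes passing. A pass at 1 day alone is thus no shown difference between days.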

How the data were processed

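Liver RNA of 12 mice was sequenced as 100-base read pairs on a single lane. The authors used CASAVA 1.8.2 and FastQC and mapped reads to mm10 with BWA, which is not built to split reads across introns, so reads over junctions of short exons can be lost. The authors deposited FPKM, made with HOMER on exons of 1 transcript per gene per the file headers, without scaling between libraries. FPKM are not counts, and DESeq2, which the authors named, was not used here. Depth of 15748702 to 23345582 reads was recovered from low values (100% of 1500 per library whole within 0.1 read) and limits the precision for low genes.

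Differences between groups were computed here on a log2 scale after adding a pseudocount of 1, using R 4.3.3 and limma 3.58.1. A single model held the 4 groups, with empirical Bayes moderation, a trend and 2-sided tests. Low genes were removed (an FPKM of 1 had to be reached by 3 libraries), and p-values of the 10593 genes left were adjusted by Benjamini-Hochberg. The code was tested on simulated data. Calls needed an adjusted p under 0.1 and, for both thresholds, a log2 fold change of at least 1. This main model held no pairs, and the labels name none. As an alternative at day 25, the replicate numbers of the labels were used as a block. The reason was that same-numbered Con and CR mice deviated together (correlations 0.368, 0.306 and 0.106, against -0.287 to 0.0134 for other pairs). The day 30 Con columns could not be matched to single samples and are given in table order.

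Members, gene lists, markers and tests were chosen with earlier results of these data known. Other genes are named by rule: a fixed list of regulators, any past both thresholds and the 6 smallest adjusted p at each day. Slc48a1, Fbxl5, Cd163, Scara5, Id2, Id3, untested genes and the names behind counts of 5 or fewer fall outside it and were chosen after their values were seen. Hjv is listed under its older symbol Hfe2. Sequences were read with Biopython 1.88, and figures drawn with matplotlib 3.10.9. Alternatives covered the pseudocount, filter, scaling (median ratio, TPM, quantile), moderation, groups in the model, voom on recovered reads, the replicate block and leaving out each mouse.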

Additional observations from a re-analysis of the deposited data

How the results depend on the processing

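The log2 fold changes of Hamp and Hamp2 kept their sign under every alternative run. Bmp6, Trf, Hfe, Slc40a1 and Tfrc also kept theirs at each day, but without 1 mouse Bmp6 ranged from 0.0996 to 0.24 and Trf from 0.12 to 0.31 at day 25, and Tfrc from -0.58 to -0.26 at day 25 and 0.28 to 0.75 at day 30. The signs of Tfr2 (-0.078 to 0.13 at day 25 and -0.10 to 0.030 at day 30), Fth1 (-0.044 to 0.21 at day 25) and Ftl1 (-0.17 to 0.050 at day 25) turned without 1 mouse, and Ftl1 at day 30 ranged from -0.35 to -0.16. Scaling turned Tfr2 (-0.064 with quantile normalization at day 25, 0.025 with median ratios at day 30) and Ftl1 (0.0066 with median ratios at day 25). The median of all genes at day 30 was -0.068, and -0.11 as TPM. Median-ratio scaling gave 0.77 and 0.81 for Hamp at days 25 and 30. Of the 10 genes, the number past both thresholds at day 25 was 0 with no filter, and at day 30 it was 2 with voom. Of the 75 other genes, it was 1 at day 25 with voom and 2 at day 30 with a pseudocount of 0.1, median-ratio scaling, quantile normalization and voom. Over both days it was 1 with a pseudocount of 0.1, median-ratio scaling and voom, and for CR day 30 against CR day 25 it was 1 with voom. The single gene under the adjusted p in that last comparison was lost (0) with a pseudocount of 0.1, no filter, TPM and only the groups compared. The causes were not tested.

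Leaving out 1 mouse at a time gave 6 to 11 of the 75 genes at day 25, with the lowest counts without CR replicate 1 (6) and Con replicate 1 (7), and 10 to 20 at day 30, lowest without CR replicate 1 (10). Past both thresholds it gave 0 to 1 and 1 to 2 of the 75, 0 to 1 over both days, and 0 to 1 and 1 of the 10. For CR day 30 against CR day 25 it gave 0 to 1 under the adjusted p. At day 25, single calls were lost without Con replicate 1 or 3 or CR replicate 1 or 2 for Aco1 (0.28 to 0.32), Con replicate 1 or CR replicate 1 for Slc39a14 (0.38 and 0.45), CR replicate 1 or 3 for Slc48a1 (-0.45 and -0.43), any day 25 mouse but Con replicate 3 for Cp (-0.45 to -0.34), and any day 25 mouse but CR replicate 2 (0.25 to 0.33) or 4 mice of day 30 for Ncoa4. At day 30, they were lost without Con columns 2 or 3 or CR replicate 1 or 2 for Id1 (0.74 to 1.03), Con columns 1 or 2 or CR replicate 1 for Slc11a2 (-0.39 to -0.25), Con columns 1 or 3 or CR replicate 2 or 3 for Ncoa4 (0.24 to 0.33), any Con column or CR replicate 2 or 3 for Fbxl5 (0.24 to 0.34), Con columns 1 or 3 or CR replicate 1 or 3 for Cd163 (0.35 to 0.44), and any Con column, CR replicate 1 or 2 or 2 mice of day 25 for Fdx1 (0.38 to 0.49). At day 30, calls were gained by Socs3 without Con column 3 (-1.25), by Creb3l3 without Con column 3 (-0.38) or Con replicate 1 of day 25 (-0.29), by Ireb2 without Con column 1 (-0.54) or 3 mice of day 25 (-0.42), also with voom and only the groups compared, and by Lcn2 without Con replicate 2 of day 25 (1.17). Other settings ended calls of Aco1, Ncoa4 and Cp at day 25 and of Id1, Ncoa4, Slc11a2, Fdx1, Fbxl5 and Cd163 at day 30.

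Among the other genes named, signs turned for uncalled differences only. Creb3l3 at day 25 was -0.061 with quantile normalization, Lcn2 at day 25 was 0.048 with voom, and at day 30 Tmprss6 was 9.33e-05 and Hp 0.037 with median-ratio scaling. Without 1 mouse, the ranges at day 25 were -0.086 to 0.69 for Id1, -0.44 to 0.051 for Smad7, -0.10 to 0.10 for Creb3l3 and -0.70 to 0.54 for Lcn2, and at day 30 -0.023 to 0.18 for Smad7, -0.022 to 0.21 for Hpx and -0.19 to 0.19 for Hp.

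In CR mice, the replicate numbers of the 2 days belong to different animals, and same-numbered mice did not deviate together (correlations -0.382, 0.299 and 0.0780). With that number as a replicate block, 0 of the 75 and 1 of the 10 passed. No paired analysis was possible at day 30 because the Con columns carry no sample number. The day 25 block changed no call other than those given above.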

Other observations

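Scara5, a receptor for ferritin, was the single iron gene of the 75 under an adjusted p of 0.1 between CR day 30 and CR day 25, and it is named after its values were seen. Its FPKM was 1.40, 1.53 and 1.17 in CR mice at day 25. In CR mice of day 30 it was 0.170, 0.435 and 0.544, a log2 difference of -0.78 (SE 0.15, adjusted p = 0.0799 in limma). Con mice held 1.11, 0.805 and 0.737 on the earlier day and 0.413, 0.905 and 0.469 on the later. The libraries held 15 to 112 reads on it. The call was lost with a pseudocount of 0.1, with no filter, as TPM, with only the groups compared, with the replicate block and without any of 6 single mice. Across all genes, 0.321% passed in that comparison.

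Cd163, the macrophage receptor that clears hemoglobin, rose at day 30, from 2.08, 2.45 and 1.79 FPKM in Con mice to 3.14, 2.76 and 3.66 in CR mice (log2 fold change 0.43, adjusted p = 0.0637). At day 25 the difference was -0.20 (adjusted p = 0.448), and the test of the difference between the days gave 0.63 (adjusted p over all genes 0.9995). Marco rose with it at day 30, while the other 7 Kupffer markers did not pass at that day, and their part in the result was not tested.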
